A study of Capsella rubella with 6 samples.

Results

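The sites described here are single nucleotide polymorphisms (SNPs) at which endosperm RNA of *Capsella rubella* was sequenced and which the authors' tables place in no gene interval. They were taken by that rule alone, which uses no measured value, and numbered 17504 of the 71169 SNPs in those tables. Earlier results of these data were known when the members were chosen. A maternal and a paternal base could be assigned at 17454 of the 17504 sites. Neighbouring sites at most 1000 bp apart along a scaffold were joined into 9033 blocks, each a run of neighbouring sites outside genes. A block can run across a listed gene, whose own sites are not counted in it: 45 of the 9033 did so, among them 2 of the blocks called maternal below. Most blocks were small: 5660 of them (62.7%) held 1 site, and the most extended ran over 8020 bp.

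The samples were reciprocal crosses between 2 accessions of this self-fertilising relative of Arabidopsis, namely Cr48.21, named Cr A, and Cr75.2, named Cr B. There were 2 libraries of Cr A x Cr B endosperm and 2 of Cr B x Cr A endosperm, each from the dissected endosperm of 300 to 500 pooled seeds at 6 days after pollination, and all carried both genomes, with no mutant or treatment in any group. Leaf DNA of each accession was also part of the series, and its reads were not analysed here. Female partners were emasculated, per the labels' protocols, but no label names the female partner of a cross, so the first name was taken as the mother. The maternal and paternal bases come from the authors' own tables, so a maternal share does not depend on that reading, whereas every direction by accession would turn round if it were wrong. The files give no gene names, so the endosperm label could not be checked against marker genes, and genes and blocks are given by scaffold, start and end as the authors' tables list them (the genome build is not given in the sources used here).

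Endosperm is the nourishing tissue of the seed. It arises when a sperm cell fertilises the central cell, which contributes 2 maternal genomes to 1 paternal genome, so a transcript made equally from every copy has a maternal share of 66.7%. Genomic imprinting, the unequal use of the maternal and paternal copies, is in flowering plants known mainly from this tissue, where DNA methylation and Polycomb proteins mark the copies differently. Transcripts between annotated genes can be the unannotated ends of neighbouring mRNAs, noncoding RNAs, transposable elements or genes missed by the annotation, and imprinted noncoding transcripts have been described in maize endosperm. The library kit does not mark strand, so the strand of a block's transcript is unknown here.

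Sites outside genes held a small and uneven part of the reads. They had 573659 allelic reads in Cr A x Cr B replicate 1 and 788524 in replicate 2, while Cr B x Cr A had 696505 in replicate 1 and 772243 in replicate 2. These were 7.06%, 6.74%, 7.31% and 6.64% of all allelic reads in the 4 libraries, which had 8122727 to 11702322 each. A read over more than 1 SNP counts at each, so these are base observations rather than molecules. The median site outside genes had 4 reads over the 4 libraries, against 85 for sites in genes, 232 for sites in listed exons and 7 for sites in genes but outside listed exons. Of the 17454 sites, 4786 (27.4%) had 1 read in all, 4564 (26.1%) had 20 or more, and 4898 (28.1%) had a read in every library. The single deepest block held 6.95% of all reads outside genes, the 10 deepest held 23.9% and the 100 deepest held 65.0%.

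Reads were densest beside genes, and on the downstream side. Distance was measured to the nearest of the 12641 genes with a SNP in the tables, so an unlisted gene may lie nearer. Sites 1 to 100 bp from a gene made up 11.6% of the sites and 18.9% of the reads, with a median of 9 reads. Distance classes include their upper edge. The median was 5 reads at 100 to 500 bp, 4 at 500 to 1000 bp, 3 at 1000 to 5000 bp and 2 beyond 5000 bp. Within 100 bp the downstream sites, past the 3′ end of the gene, averaged 388 reads and the upstream sites 134. At 100 to 500 bp the downstream mean was 242 reads and the upstream mean 60.9, while beyond 5000 bp the order was turned, with 90.4 reads downstream and 130 upstream. These means rest on few deep sites: the share of sites with 20 or more reads was 44.1% downstream and 33.2% upstream within 100 bp, and 18.6% and 18.5% beyond 5000 bp.

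**Figure D1:**
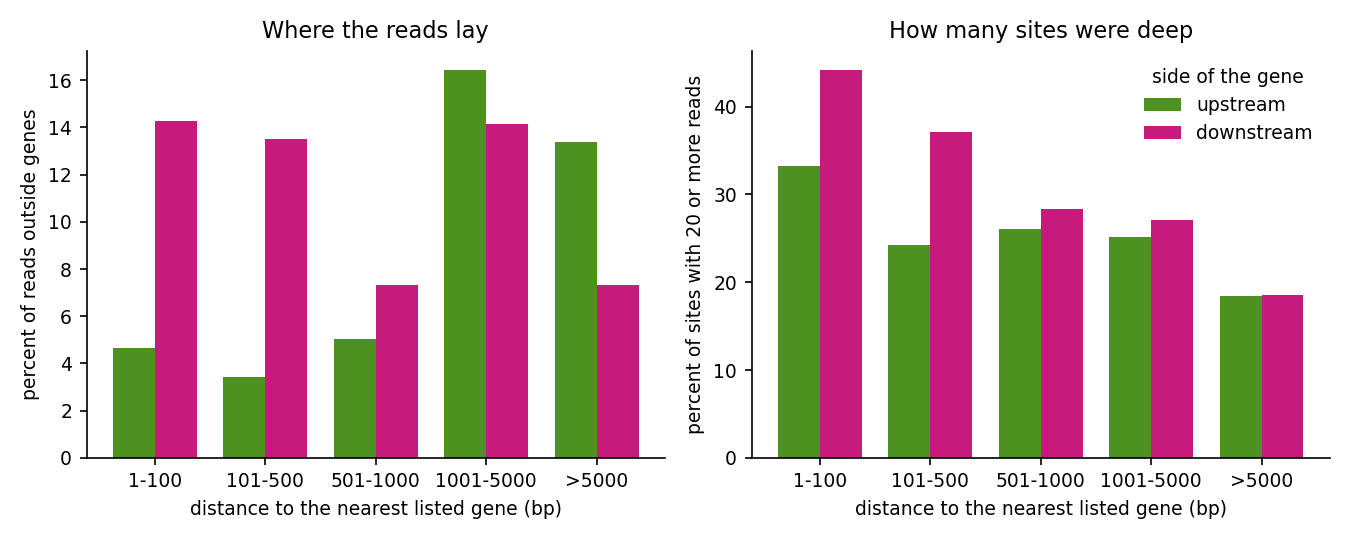
Left, the share of all reads outside genes (percent, bars from 0) by distance to the nearest listed gene and side of that gene; right, the share of sites with 20 or more reads over the 4 libraries. Within 500 bp the downstream bars stand above the upstream ones, and beyond 5000 bp the shares of deep sites are nearly equal, at 18.5% upstream and 18.6% downstream.

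Reads outside genes were mostly maternal, close to those in genes. The maternal share of their summed reads was 71.5% and 70.0% in Cr A x Cr B, then 70.1% and 72.35% in Cr B x Cr A, against 68.3%, 66.4%, 70.0% and 72.2% at sites in genes in the same libraries. Every library had the higher share outside genes, by 3.22 and 3.63 percentage points in Cr A x Cr B but by 0.0871 and 0.16 points in Cr B x Cr A. The mean difference was 1.77 ± 1.91 points (SD, n = 4 libraries; exact two-sided sign-flip permutation test; the p is the smallest that 4 libraries allow, and cannot pass 0.05). The difference thus came almost wholly from Cr A x Cr B, where it averaged 3.42 points, against 0.123 in Cr B x Cr A.

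By distance, summed reads showed no steady course. The mean difference from sites in genes was 2.16 ± 3.74 points at 1 to 100 bp, 0.639 ± 4.90 at 100 to 500 bp, 0.675 ± 1.00 at 500 to 1000 bp, 3.36 ± 1.87 at 1000 to 5000 bp and 1.03 ± 0.702 beyond 5000 bp (SD, n = 4 libraries). In the nearest class the crosses went opposite ways, with 5.38 points in Cr A x Cr B but -1.07 in Cr B x Cr A. Without the 10 deepest blocks and genes, the mean difference of that class over the 4 libraries was 0.63 points. All 4 libraries lay above the genes only in the 2 classes beyond 1000 bp, each with that same smallest p. At 100 to 500 bp the mean difference was -0.585 with Cr A x Cr B replicate 1 left out and -0.601 with replicate 2 left out, so its direction rests on those libraries. At 1 to 100 bp it was 0.977 and 1.19 with either of these left out and 3.37 without Cr B x Cr A replicate 2, and at 500 to 1000 bp it was 0.212 with Cr A x Cr B replicate 2 left out. The 212 sites on scaffolds with no listed gene went the other way, at -4.35 ± 7.80 points, with 3 of 4 libraries under the genes (exact sign-flip permutation test, p = 0.375). Summed reads follow the deepest blocks, and the typical site looked different. Among sites with 20 or more reads in a library, the median maternal share beyond 5000 bp was 78.9%, 72.0%, 80.5% and 79.3%, over 362, 494, 434 and 506 sites. The medians in genes were 69.6%, 67.3%, 70.3% and 72.8%. The median site beyond 5000 bp was therefore 7.68 points more maternal on average, in 4 of 4 libraries (exact sign-flip permutation test, again at its smallest p). In the classes up to 5000 bp the same difference lay between 0.972 and 2.25 points. Each site counts singly in these medians, so a block of many sites weighs more than a block of 1. By block the shift was absent. Among features with 20 reads in each cross, the median of the mean shares was 68.27% for blocks beyond 5000 bp and 68.89% for genes.

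**Figure D2:**
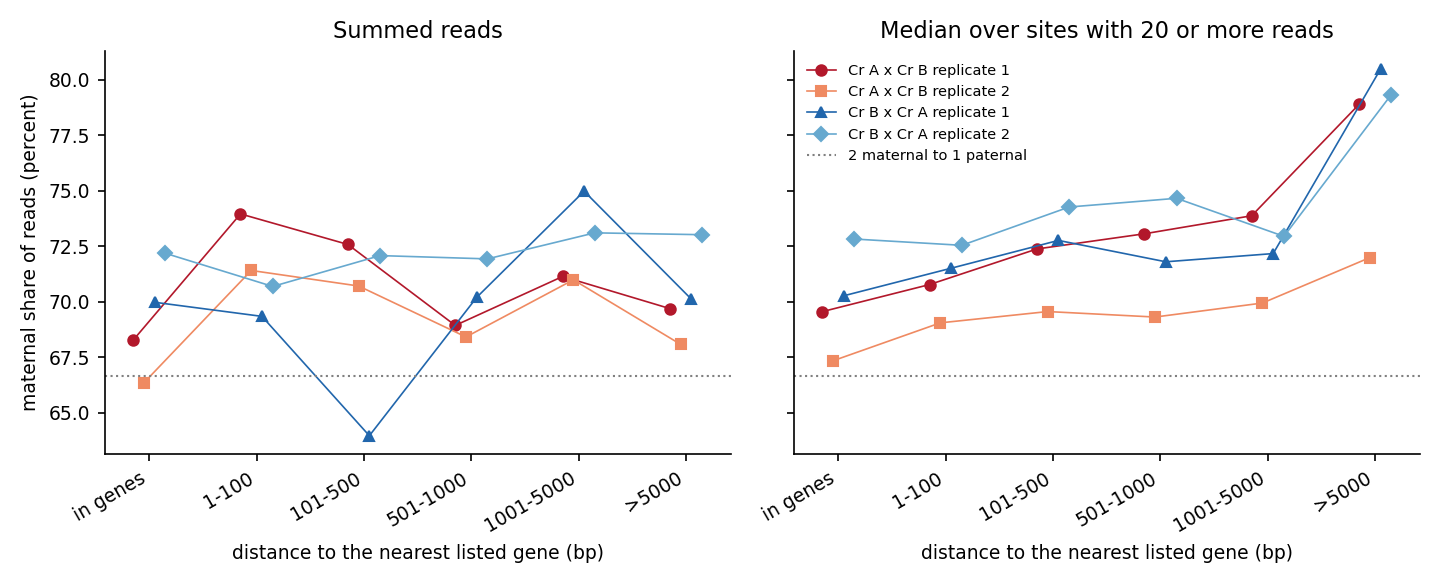
Maternal share (percent) in each library, at sites in genes and by distance of sites outside genes, over summed reads on the left and as the median over sites with 20 or more reads in that library on the right; the dotted line marks 2 maternal to 1 paternal reads. On the right the points beyond 5000 bp stand at 72.0% to 80.5%, 7.68 points above the same library's genes on average, while the summed reads on the left lie 1.03 points above them on average.

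Parental bias was then tested block by block, in 1 fit of edgeR's quasi-likelihood test over all genes and blocks, against 2 maternal to 1 paternal reads. Blocks needed 20 allelic reads in each cross, which 1751 of 9033 (19.4%) had. This left 33.5% of the blocks within 100 bp of a gene in the test and 11.7% of those beyond 5000 bp, and the rest were too shallow to judge. The minimum holds per cross, so the share in a single library can rest on few reads. The median block tested lay near the dosage, with a mean maternal share of 68.3% and a fitted log2 value of 0.22 above 2 to 1, against 68.9% and 0.19 for genes.

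A block was called maternal when its adjusted p was at most 0.05 and its maternal share at least 85% in each library, and 100 blocks (5.71%) met this, against 3.76% of all 10348 features tested and 3.36% of the genes. A block was called paternal at a share of 50% or less in each library, and 19 blocks (1.09%) met this, against 0.918% of all features and 0.884% of the genes. The paternal share of calls was thus near the background. With the share bounds left aside, 157 blocks (8.97%) were more maternal than 2 to 1 and 38 (2.17%) less maternal, against 6.47% and 1.87% of all features. Leaving out Cr A x Cr B replicate 2 gave 19 less maternal blocks.

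Maternal calls were more frequent among blocks far from genes. They made up 4.01% of the 548 blocks tested at 1 to 100 bp, 3.58% of 391 at 100 to 500 bp, 5.88% of 136 at 500 to 1000 bp, 6.81% of 382 at 1000 to 5000 bp and 10.1% of 277 beyond 5000 bp. In all, 54 of 659 blocks over 1000 bp from a gene (8.19%) were called maternal, and 44 of 1075 within 1000 bp (4.09%), the second share being near the background of 3.76%. Blocks over 1000 bp upstream had 36 calls in 365 tested (9.86%) and blocks over 1000 bp downstream 18 in 294 (6.12%). Read depth differed between these sets, so the shares were also taken by depth. Among features with at least 200 and under 1000 reads, 12.2% of the blocks over 1000 bp were called maternal, 3.32% of the blocks within 1000 bp and 4.34% of the genes. With fewer than 200 reads the shares were 5.14%, 3.52% and 4.99%, and with 1000 reads or more 8.03%, 6.61% and 2.25%. The difference between distance classes was not tested.

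**Figure D3:**
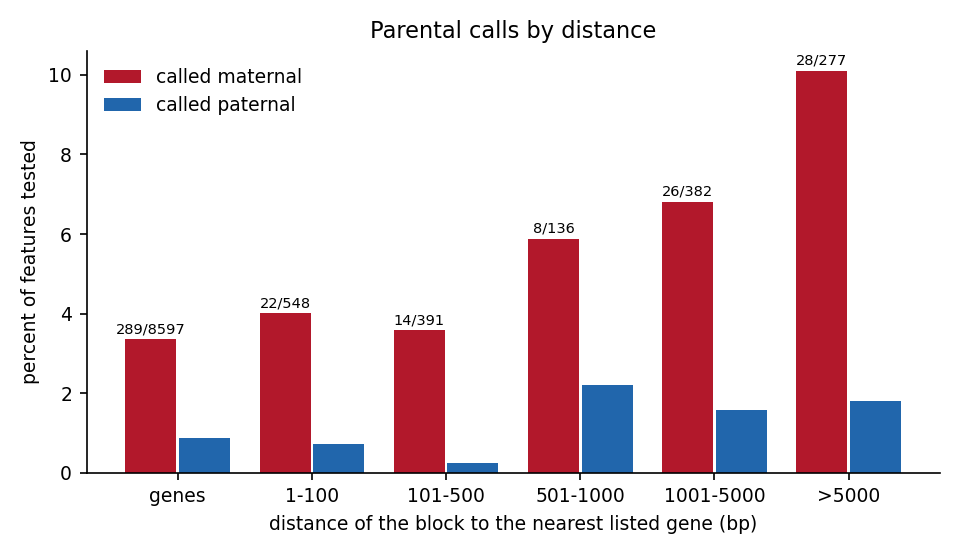
Percent of features tested that were called maternal (red) or paternal (blue), for genes and for blocks by distance to the nearest listed gene (bars from 0); the numbers over the red bars are called over tested. The maternal bar is 3.36% for genes and 10.1% for blocks beyond 5000 bp.

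Blocks called maternal were nearly free of paternal reads. Their median share was 98.98%, with a range of 89.5% to 100%, and 48 of the 100 stood at 99% or more. No paternal read was seen in 17 of them. They held 571 sites, 21 blocks held 1 site only, and their median distance from a listed gene was 1842 bp. There were 63 of these blocks with at least 2 sites of 20 or more reads. In 60 of the 63, every one of those sites had a maternal share of at least 85% over the 4 libraries, which 273 of 277 sites did. The call was made on the summed reads of the same sites at the same bound, so it largely fixes these counts. Of the 54 blocks called maternal over 1000 bp from a gene, 15 (27.8%) had another maternally called block or gene within 10000 bp. This held for 31 of the 44 nearer to genes (70.5%) and for 158 of the 1751 blocks tested (9.02%). The nearest gene itself counts here, and for 20 of the 44 it was called maternal. The 1751 blocks cover all distances, so their share is no matched background for either set.

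The deepest of the maternal blocks lay on scaffold 5:6021894-6025033, with 14 sites, 2253 bp upstream of the nearest listed gene. It had 8874 maternal and 260 paternal reads in Cr A x Cr B replicate 1, 24403 and 659 in replicate 2, 16559 and 312 in replicate 1 of Cr B x Cr A, and 14268 and 279 in its replicate 2. Its maternal share was 97.2%, 97.4%, 98.2% and 98.1%, or 97.7% ± 0.502 (SD, n = 4 libraries). The 4 libraries agree within 1 percentage point, and the fitted value was 4.43 ± 0.116 (log2 over 2 to 1, SE; edgeR adjusted p = 2.04e-05). The gene beside it, at 6018196-6019641, was also called maternal, at 89.0%, 91.1%, 93.8% and 96.8%. The block was the more maternal in all 4 libraries, by 1.62 ± 0.278 on the log2 scale (SE; edgeR adjusted p = 0.0073).

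A block of 16 sites on scaffold 4:4995884-4998239 lay 47670 bp from the nearest listed gene and was among the 5 deepest so far out. It had 1573 maternal and 12 paternal reads, 5209 and 35, 5490 and 15, and 4720 and 35 in the libraries in the same order. The share lay between 99.2% and 99.7% in every library, and averaged 99.4% ± 0.227 (SD, n = 4; log2 6.42 ± 0.259 SE, edgeR adjusted p = 5.18e-05). The other 4 of the 5 deepest blocks beyond 5000 bp did not differ from 2 to 1 past the threshold. Their mean shares lay between 68.1% and 69.2%, and their edgeR adjusted p values between 0.40 and 0.73.

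A set of 10 blocks was named for the largest fitted maternal bias among those with at least 50 reads in every library, and 3 of them had no paternal read. The single site on scaffold 1:4763932 had 69 and 133 maternal reads in Cr A x Cr B, plus 256 and 151 in Cr B x Cr A, and 0 paternal reads in each, so that its 609 reads set a limit of 0.493% on the paternal share (counting error only). As the mother differs between the crosses, the site was read from the Cr A base in the first pair of libraries and from the Cr B base in the second. A block of 2 sites on scaffold 2:9279582-9279724 had 855 maternal reads and 0 paternal reads, with a limit of 0.351%, and the 4 sites on scaffold 7:6433821-6434640 had 307 and 0, with a limit of 0.977%. A read over several sites of a block counts at each, so both of these limits may be too low. The edgeR adjusted p of the 3 blocks with no paternal read was 0.00246, 0.00153 and 0.00568. The other 7 had 1 to 8 paternal reads each, and mean shares of 99.2% to 99.9%. The 10 lay on scaffolds 1 to 8 and at 49 to 6193 bp from a listed gene, 6 of them over 1000 bp away.

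Paternal blocks were fewer and shallower, and less one-sided. A maternal call allows a smaller share from the other parent than a paternal call does, so the bounds themselves favour that last contrast. It was not tested apart from them. Without share bounds, blocks less maternal than the dosage were still fewer, at 38 against 157 more maternal. The 19 called paternal had a median maternal share of 13.2%, between 0% and 34.6%, and a median of 213 reads, against 379 in the blocks called maternal. Only 7 stood at 10% or less. All 36 of their sites with 20 or more reads, in the 10 blocks with at least 2 such sites, had a maternal share of 50% or less. The call was made on the same reads at that bound, so it largely fixes this count too. Among the 19, a pair of blocks had 50 reads in every library and is given in full. Without Cr A x Cr B replicate 2 the number called paternal was 9, and without Cr B x Cr A replicate 2 it was 11. Of the 19 blocks, 10 still had enough reads to test in either case, and 9 of those kept the call.

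The first of the pair, 7 sites on scaffold 11:84769-86608, lay 17414 bp from the nearest listed gene. It had 1 maternal and 117 paternal reads in Cr A x Cr B replicate 1, 1 and 254 in replicate 2, 21 and 192 in replicate 1 of Cr B x Cr A, and 28 and 108 in its replicate 2. Its maternal share was 0.847%, 0.392%, 9.86% and 20.6%, all far under 66.7%, and higher in Cr B x Cr A than in Cr A x Cr B (log2 -5.93 ± 0.348 SE against 2 to 1; edgeR adjusted p = 0.000185). The second, 2 sites on scaffold 7:11104192-11104397, had 51 maternal and 180 paternal reads, 35 and 168, 114 and 148, and 147 and 154. Its share was 22.1%, 17.2%, 43.5% and 48.8%, so that fewer than 50% of reads were maternal in every library, though with nearly equal maternal and paternal reads in Cr B x Cr A (log2 -2.12 ± 0.185 SE; edgeR adjusted p = 0.00103). This block lies 1328 bp upstream of a gene at 11097355-11102864 that was itself called paternal, at 1.28%, 2.05%, 3.12% and 17.2% maternal. On the other side of the same gene, 13 bp past its end, the site 11097342 was also called paternal, with 15 maternal and 221 paternal reads in all. That site and the gene did not differ past the threshold (edgeR adjusted p = 0.925), whereas the upstream block was more maternal than the gene by 3.54 on the log2 scale (edgeR adjusted p = 0.00327).

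**Figure D4:**
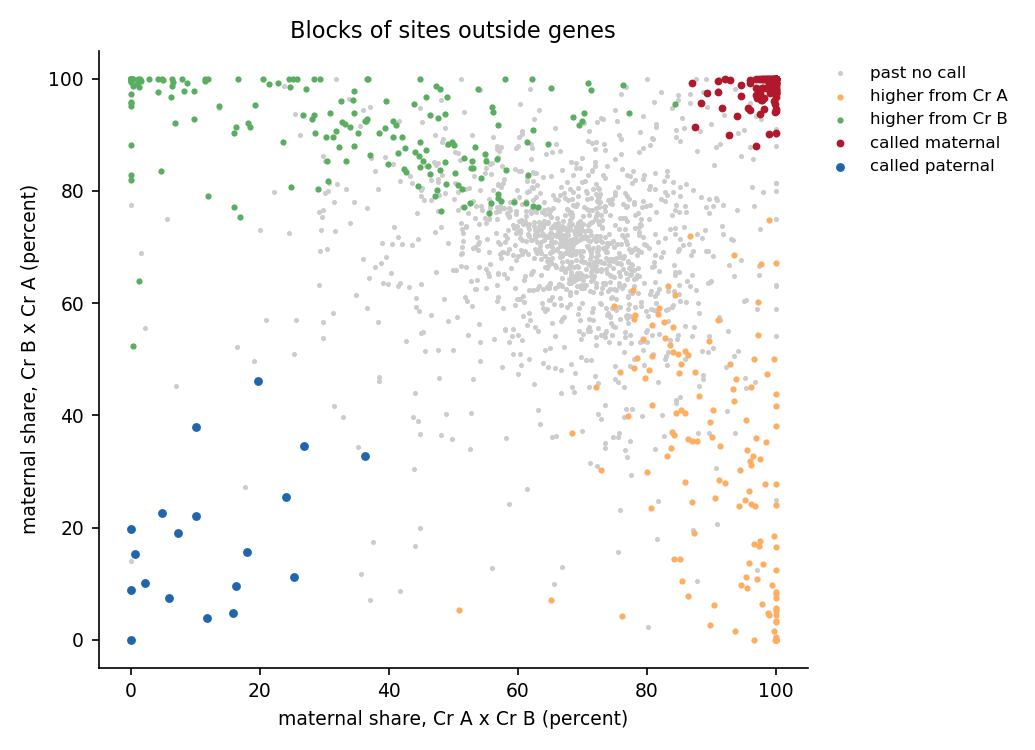
Maternal share (percent, mean of 2 libraries) of each of the 1751 blocks tested, in Cr A x Cr B on the horizontal axis and in Cr B x Cr A on the vertical axis, coloured by call; blocks called maternal or paternal keep that colour where the accession test was also past its threshold. The 100 maternal blocks crowd into the upper right corner, the 19 paternal ones spread over the lower left, and blocks higher from Cr B or Cr A lie toward the upper left and lower right.

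The genes nearest to the called blocks are to be read against the 3.36% of all genes tested that were called maternal and the 0.884% called paternal. Of the 44 maternal blocks within 1000 bp of a gene, 20 lay beside a gene that was also called maternal, 14 beside a gene tested and not called, and 10 beside a gene with too few reads to test. Of the 54 over 1000 bp away, the counts were 3, 26 and 25. None of the 100 lay beside a gene called paternal. Of the 8 paternal blocks within 1000 bp, 4 had a paternal gene as their neighbour, all of them within 100 bp, and of the 11 farther out 2 did.

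The difference itself was tested in the 1357 pairs in which block and gene each had 20 reads in each cross (edgeR's quasi-likelihood test of the parent term between block and gene). The block was more maternal in 62 pairs (4.57%) and less maternal in 35 (2.58%) at an adjusted p of at most 0.05. These were 7 and 3 of 505 pairs at 1 to 100 bp, 5 and 2 of 336 at 100 to 500 bp, and 5 and 5 of 102 at 500 to 1000 bp. Farther out they were 24 and 13 of 263 pairs at 1000 to 5000 bp, and 21 and 12 of 151 beyond 5000 bp. The median gap between the mean shares of block and gene, without regard to sign, was 4.23, 4.00, 6.46, 8.69 and 12.5 percentage points in these 5 classes. Across pairs, Pearson's r between the shares was 0.71, 0.45, 0.44, 0.21 and -0.09. These correlations are a description, since blocks of 1 gene and all pairs share libraries. The median depth of these blocks was 306, 226.5, 433, 275 and 273 reads in the same order. Each library left out lowered the counts: they were 35 and 9 when Cr A x Cr B replicate 1 was omitted, 35 and 12 when its replicate 2 was, 44 and 19 when Cr B x Cr A replicate 1 was, and 41 and 15 when its replicate 2 was. The deepest site of each block alone gave 41 and 19.

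**Figure D5:**
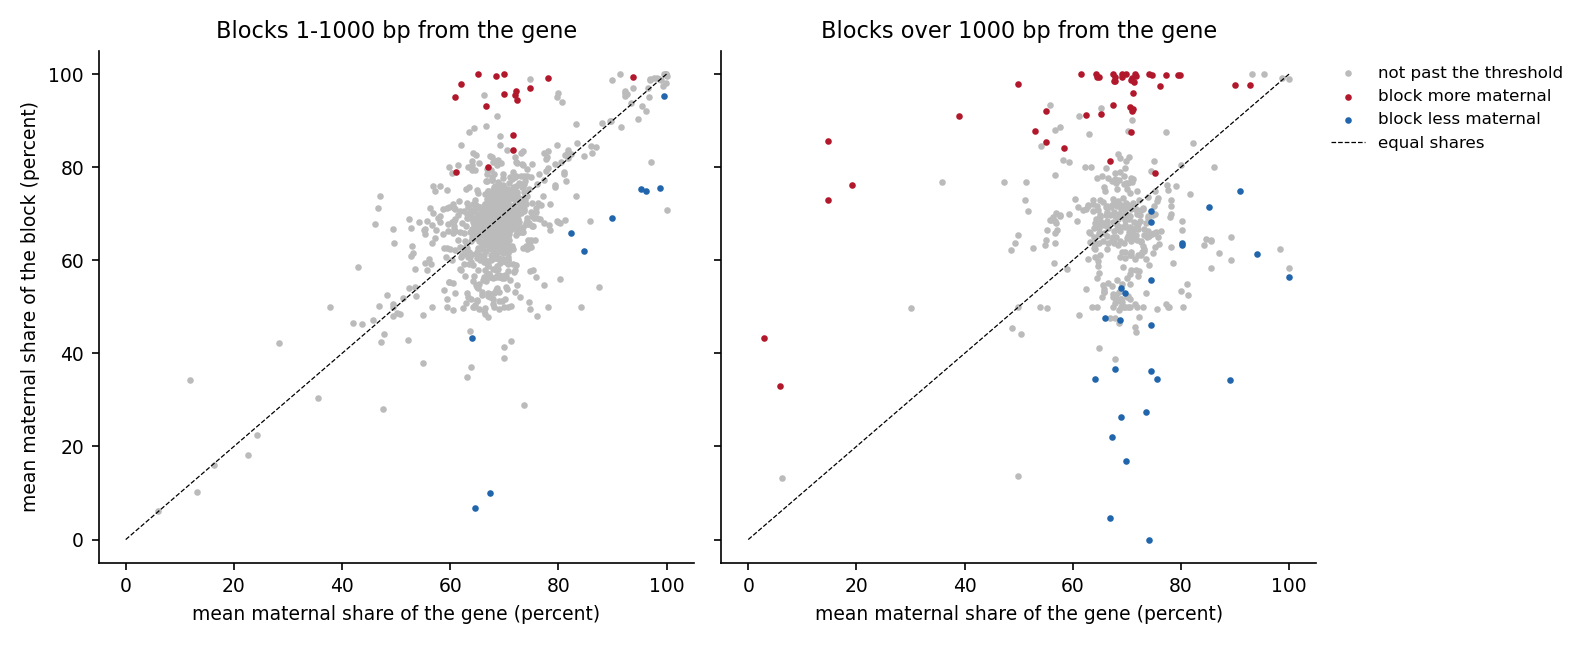
Mean maternal share over the 4 libraries (percent) of each block on the vertical axis against that of its nearest listed gene on the horizontal axis, for pairs within 1000 bp (left, 943 pairs) and over 1000 bp apart (right, 414 pairs). Points lie closer to the dashed line of equal shares on the left (r = 0.61) than on the right (r = 0.11), where blocks near 100% stand over genes of ordinary share.

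Among the 5 blocks named for a higher share than their gene, the widest gap in mean share was on scaffold 4:2095369-2095817, where 4 sites lay 1320 bp upstream of a gene called paternal. The block had a maternal share of 84.2%, 70.2%, 93.2% and 94.7%, while the gene at 2097137-2100529 had 15.1%, 11.9%, 4.26% and 27.6%. The block stood above the gene in all 4 libraries, and was more maternal by 5.60 on the log2 scale (edgeR adjusted p = 0.000842). The block of 18 sites on scaffold 7:13920566-13924080, 5286 bp from its gene, stood at 99.7% to 99.9% maternal in the 4 libraries, against 73.5% to 87.1% in the gene. It had 7 paternal reads in 3056, and the difference was 6.998 on the log2 scale (edgeR adjusted p = 4.88e-05). Blocks with the same contrast lay on scaffold 4:5923589-5923922, at 99.3% ± 0.935 (SD, n = 4) beside a gene at 64.5% (edgeR adjusted p = 0.000842), and at the site on scaffold 1:4763932, with no paternal read beside a gene at 69.9%. The fifth, 3 sites on scaffold 1:9208811-9208971 and 35 bp downstream of a gene, had 99.8%, 100%, 99.7% and 88.5% against 76.4%, 69.4%, 80.7% and 72.3% in the gene (log2 5.76; edgeR adjusted p = 0.00202). Without Cr A x Cr B replicate 1 its adjusted p was 0.0738.

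Of the 5 blocks named for a lower share than their gene, 1 kept the call in every alternative tried. This block, 16 sites on scaffold 12:170668-173675, had 23.5% and 10.5% in Cr A x Cr B but 65.7% and 85.1% in Cr B x Cr A, against 98.8%, 98.3%, 49.2% and 51.5% in the listed gene 45510 bp away (log2 -3.44; edgeR adjusted p = 0.000915). The block was higher from Cr B in all 4 libraries (log2 -2.08, Cr A over Cr B; edgeR adjusted p = 0.013), whereas the gene had the higher maternal share where Cr A was the mother. A further 4 blocks of scaffold 12, between 109877 and 201252, had the same nearest gene and were fitted as less maternal than it over both crosses, with edgeR adjusted p values between 0.000948 and 0.0265. All 5 lay under the gene in both Cr A x Cr B libraries. In Cr B x Cr A, 3 of the 5, at 170668, 109877 and 194147, lay above the gene in both libraries, the block at 200227 in 1, and the block at 175055 in neither. These 5 pairs share 1 gene and are not independent. The other 4 blocks named for a lower share each lost the call without 1 library or more. They were on scaffold 8:865593-865684 (95.2% against 99.6%), scaffold 5:6856656 (75.2% against 95.3%) and scaffold 3:7639615-7640073 (62.0% against 84.8%), each under its gene in all 4 libraries, and on scaffold 5:4873447-4873978. The last went both ways, with 91.8% and 95.5% in Cr A x Cr B but 1.35% and 1.93% in Cr B x Cr A, against 61.6%, 49.6%, 76.6% and 75.9% in its gene. Without Cr A x Cr B replicate 1 their edgeR adjusted p values were 0.324, 0.144, 0.345 and 0.0534. With Cr B x Cr A replicate 2 left out, they were 0.320 on scaffold 8, 0.0825 at scaffold 5:6856656 and 0.0646 at scaffold 5:4873447-4873978. Without Cr B x Cr A replicate 1 they were 0.136 at scaffold 5:6856656 and 0.165 on scaffold 3, and on scaffold 3 the value was 0.175 with Cr A x Cr B replicate 2 left out.

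More blocks passed the test of the allele's accession, 343 in all, than the parental test, which 195 passed, and 42 passed both. The order was the same among all 10348 features tested. There 591 and 1026 were higher from Cr A and Cr B, and 669 and 193 were more and less maternal. The Cr A base was higher in 142 blocks (8.11%), against 5.71% of all features tested, and the Cr B base in 201 (11.5%), against 9.91%. Counted for blocks only, with no share over all features to set beside it, the imbalance was at least 2-fold in 123 and 183 of them. By a count likewise limited to blocks, the Cr A base made up 95% or more of the reads in every library in 13 and 5% or less in 34. With any 1 library left out, fewer blocks passed the accession test in either direction than the 142 and 201 of the full fit. Fewer blocks also had enough reads to be tested then.

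Blocks at the Cr A end had few Cr B reads in either cross. The 25 sites on scaffold 10:47475-50806 had 2418 Cr A reads and 1 Cr B read. The single site on scaffold 5:10716183, 208 bp downstream of a gene, had 1698 and 2. The 19 sites on scaffold 2:6240767-6243008 had 1369 and 13, with a Cr A share of 100%, 99.4%, 98.3% and 98.5%. The pattern held in every library of these 3 blocks whichever parent gave the Cr A base. The other 2 named were on scaffold 5:4873447-4873978 (4180 and 163 reads) and scaffold 6:5668646-5669175 (902 and 34). The edgeR adjusted p was between 0.000171 and 0.000428 over the 5.

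Blocks at the Cr B end had almost no Cr A read. The 2 sites on scaffold 8:69427-69448 had 0 Cr A reads and 3051 Cr B reads, which allows a Cr A share of up to 0.0983% (counting error only). A read over several sites of a block counts at each, so this limit and the next ones may be too low. The 9 sites on scaffold 1:14780640-14781879 had 0 and 1932, with a limit of 0.155%, and the 7 sites on scaffold 1:12412286-12413077 had 0 and 726, with a limit of 0.413%. Their maternal share was therefore 0% in both Cr A x Cr B libraries and 100% in both Cr B x Cr A libraries. The remaining 2, on scaffold 8:5385761-5387100 and scaffold 17:77107, had 1 Cr A read each beside 3460 and 2306 Cr B reads. Scaffold 17 has no listed gene. The edgeR adjusted p over the 5 lay between 0.000168 and 0.00141.

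Of the 5 blocks with the most sites, 3 had enough reads to test, and 2 of these were higher from Cr B. The 53 sites on scaffold 4:3147226-3155245 were called maternal, at 88.5%, 85.5%, 100% and 98.5%, while the gene 201 bp away had 65.4%, 67.4%, 64.1% and 69.9%. The 36 sites on scaffold 3:7538262-7545389 had 43.8% and 40.2% maternal in Cr A x Cr B but 88.7% and 90.6% in Cr B x Cr A, hence more reads from Cr B in all 4 libraries (log2 -1.80 ± 0.128 SE, Cr A over Cr B; edgeR adjusted p = 0.000629). Neighbouring blocks of 32 and 33 sites on scaffold 5, at 4517965-4524758 and 4534059-4539749, had 131 and 77, and 80 and 88 reads in Cr A x Cr B, all maternal. In Cr B x Cr A the first had 2 and 1 reads and the second 2 and 0, too few to test. Of their 211 and 170 reads, 210 and 170 carried the Cr A base. The 31 sites on scaffold 2:4400079-4406563 lay near the dosage, at 63.7%, 64.2%, 71.9% and 75.4% (edgeR adjusted p = 0.634).

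Of the 5 deepest blocks, 4 did not pass the threshold of the parental test (edgeR adjusted p between 0.34 and 0.83), and the fifth is the maternal block given first. The single site on scaffold 4:262256, 7252 bp upstream of a gene, had 196636 reads, of which 68.6%, 65.5%, 70.9% and 71.8% were maternal. The 4 sites on scaffold 7:13581967-13582990 had 96908 reads at 65.9%, 64.9%, 64.4% and 77.4%, and the 8 sites on scaffold 8:9088427-9090797 had 46192 at 66.0%, 66.3%, 72.2% and 73.6%. All 3 lay near 66.7% with some spread between libraries. In the 3 sites on scaffold 4:5995330-5995536, 110 bp downstream of a gene, 1 library stood apart. Cr B x Cr A replicate 1 had 9517 maternal and 16771 paternal reads there (36.2% maternal), against 72.3% and 69.7% in Cr A x Cr B, with 75.2% in the other library of its own cross. By reads it is the largest block of the class 100 to 500 bp, in which the same library had 64.0% maternal reads and the other 3 had 70.7% to 72.6%.

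Total allelic reads of blocks did not differ between the crosses past the threshold. In such pooled tissue, fewer cells with a transcript and less of it per cell cannot be told apart. Of 2145 blocks tested in 1 table of 11178 features, 0 were higher and 0 lower in Cr A x Cr B than in Cr B x Cr A (edgeR's quasi-likelihood test, 0.0% of all features in either direction). The smallest adjusted p was 1.0 among the blocks and 0.519 among all features, and 90 blocks (4.20%) had an unadjusted p under 0.05, against 208 of all features (1.86%). DESeq2 on the same 2145 blocks called 8 higher and 13 lower, a count with no share over all features to set beside it. Some levels also differed by replicate number, which the labels tie to no batch. Of the 11178 features, 131 (1.17%) were higher in replicate 1 and 2 (0.0179%) lower (edgeR's quasi-likelihood test). Among the 2145 blocks 20 were higher and 1 was lower, so this was not particular to blocks.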

How the data were processed

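RNA of 4 endosperm libraries, 2 of each direction of a cross, was analysed at SNPs outside gene intervals. For each library the authors deposited whole-number read counts per base at each SNP, with no header line; 2 further tables of the whole series, per the file headers, hold, per SNP, the read counts of either parent with its gene and exon interval. Per the submitters' processing notes the tools were Bowtie 1.0, TopHat and Trimmomatic; which did what, the allele calling and the genome build are not given in the sources used here. Maternal and paternal bases were read from the match of those tables to the libraries, which was exact at 99.99% of sites or more; 49 sites outside genes had no determinable parental base and 1 had conflicting ones.

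Reads were summed per block and per gene. Parental and accession bias were tested together in edgeR 4.0.16 (R 4.3.3) by the quasi-likelihood test on 8 columns, a maternal and a paternal one per library, with an offset for 2 to 1 and terms for library, accession and parent (2 residual degrees of freedom). Genes and blocks shared 1 table and p-values were adjusted by Benjamini-Hochberg over all features with 20 allelic reads in each cross. Block and nearest gene were compared on 16 columns with 4 residual degrees of freedom. Total reads were compared with TMM and filterByExpr. The fits of parental bias, accession bias, total reads and block against nearest gene were tested on simulated counts. Those counts had 1 spread for all features, and those for total reads had no difference by replicate number, so they do not cover either trait of real libraries. No source says whether replicates are separate plants, and the p-values then cover only the spread among these libraries, which may be technical. Limits for a count of 0 use 3 reads over all libraries. They take each base observation as a separate read, so they may be too low where a read covers several sites.

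Blocks named were the 10 with the largest fitted bias in each parental direction and the 5 in each accession direction, and the 5 in each direction of difference from the nearest gene, among those past the threshold with 50 reads in every library (for the last, in block and gene alike). Added to these were the 5 blocks with the most reads, the 5 with the most sites and the 5 deepest beyond 5000 bp. Blocks of scaffold 12 other than the named one, and the site beside the paternal gene of scaffold 7, were chosen after their values were seen. Members, lists and tests were chosen with earlier results of these data known. Alternatives were DESeq2 1.42.0, other read minimums, joining distances, null ratios and share bounds, the deepest site alone, and leaving out each library. No sequence is given, as no genome was used here.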

Additional observations from a re-analysis of the deposited data

Results flagged for a closer look

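In 8 of the 119 blocks called maternal or paternal, the accession test was also past its threshold. Their parental ratio thus differed between the directions of the cross, although every library kept its side of the call. This was a smaller part than among the 1751 blocks tested, of which 343 passed the accession test. Among all features tested, 5.71% passed it with the Cr A base higher and 9.91% with the Cr B base higher. A call sets a share bound in each library, which leaves less room for such a difference. The values given for the 8 blocks are log2 differences of the Cr A over the Cr B base (edgeR's quasi-likelihood test). They were -1.83 at scaffold 1:13677251-13679639 (96.0% maternal in Cr A x Cr B against 99.7% in the reverse cross), -1.08 at scaffold 2:3290374-3291251 (89.3% and 97.4%), -1.96 at scaffold 4:3147226-3155245 (87.0% and 99.3%) and -2.13 at scaffold 7:15782392-15786326 (91.1% and 99.5%). All 4 had the higher maternal share where Cr B was the mother. The difference was 4.70 at the site scaffold 7:14164970 (100% and 94.7%), where all 8 paternal reads were in replicate 2 of Cr B x Cr A, and 0.75 at scaffold 8:5560859-5561571 (99.05% and 97.5%), a block of 20324 reads. The 2 paternal blocks were scaffold 7:11104192-11104397, at -0.905, and scaffold 11:84769-86608, at -2.37, both less paternal in Cr B x Cr A.

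The library files also hold reads at 13208 SNPs that neither whole-series table lists, with 4635641 base calls in all. They have no gene assignment and no parental base in the tables, and none entered the results.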

How the results depend on the processing

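The named blocks kept their direction in every alternative: 12 of 12 parental and 10 of 10 accession results stayed past the threshold throughout, and 5 of 10 differences from the nearest gene did. Blocks called maternal numbered 81 to 111 with DESeq2, other read minimums, other joining distances, the deepest site alone, a measured null ratio or bounds of 90% and 33%; 65 with only sites over 1000 bp from a gene (an alternative chosen after seeing the data, which tests fewer blocks); and 157 with no share bounds. Leaving out 1 library gave 84 to 93, and within 1000 bp of a gene the share called was 3.66% to 4.36%, against 8.74% to 10.4% over 1000 bp. Blocks called paternal numbered 11 with 50 reads in each cross, 38 with no share bounds and 9 to 20 without 1 library. Blocks more maternal than 2 to 1 numbered 99 with only sites over 1000 bp from a gene, and those less maternal 19 to 33 without 1 library. Leaving out 1 library gave 93 to 107 blocks higher from Cr A and 111 to 169 from Cr B, and 35 to 44 blocks more and 9 to 19 less maternal than their gene; the deepest site alone gave 41 and 19. In total reads, DESeq2 called 8 and 13 blocks, edgeR with no filter 12 and 20, and DESeq2 with no filter 8 and 11 (added once the data had been seen). These counts cover blocks only, with no share over all features. The maternal share minus that of genes was 2.21 points at 500 to 1000 bp and 7.68 beyond 5000 bp as a median over sites, and 1.05 at 1000 to 5000 bp and 3.35 beyond 5000 bp without the 10 deepest blocks and genes. Beyond these constructions, the cause was not tested.

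Libraries share only a replicate number, which the labels tie to no batch. With a replicate block, 110 blocks were called maternal and 20 paternal, 212 were more and 57 less maternal than 2 to 1 (against 157 and 38 without it), 142 and 199 higher from Cr A and Cr B, 0 changed in total reads, and 64 and 27 were more and less maternal than their gene. Over 11178 features the deviations of same-numbered libraries from their group means correlated at 0.558. The test of the number itself was chosen after seeing the data, as were the replicate block for differences from the nearest gene and the restriction to distant sites.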
